A study of Mus musculus with 12 samples.

Results

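The genes of the activator protein 1 (AP-1) and BATF families were examined in mouse CD4+ T cells, the helper T cells, after stimulation with or without metformin and FK506. The 9 genes were Fos, Fosb, Fosl1, Fosl2, Jun, Junb, Jund, Batf and Batf3. They were taken by gene symbol from the 45777 genes of the deposited table, and each symbol matched 1 gene. The CD4+ T cells came from the spleens of wild type C57BL/6 mice that were 7 weeks old by the sample labels, and every group was cultured for 3 days with an antibody against CD3 (0.5 µg/ml), which engages the T cell receptor. The Control group received no drug, the Metformin group received metformin (a diabetes drug that lowers mitochondrial respiration), the FK506 group received FK506 (tacrolimus, which blocks the phosphatase calcineurin), and the Metformin+FK506 group received both. The drug doses of these cultures are not given in the sources used here, and the study's methods list soluble anti-CD28 among the activation conditions and give an older age for the mice. Poly(A) RNA of 3 samples per group was sequenced, 12 samples in all, and no source says whether the 3 came from separate animals or cultures, so p-values measure only the spread between these samples, which may be technical.

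AP-1 is a dimer of basic leucine zipper (bZIP) proteins, usually 1 FOS and 1 JUN protein, that binds the DNA sequence TGACTCA and closely related sites. In T cells the JUN and FOS genes are induced through mitogen-activated protein (MAP) kinases after receptor engagement, and AP-1 acts with NFAT, the factor that calcineurin releases into the nucleus, on cytokine genes such as Il2. BATF proteins have no transactivation domain of their own, pair with JUN proteins, and bind composite sites together with IRF4 or IRF8. Batf is required for Th17 and follicular helper T cells, and Batf3 is best known from dendritic cells and is also induced in activated T cells.

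Each sample held between 43402632 and 64290105 counted reads. All 9 genes passed the filter for testing, an FPKM (fragments per kilobase of transcript, scaled to library size) that reached 0.5 in 3 or more samples, as did 15197 genes in all. Fosb passed it only through the groups with FK506. FPKM corrects for transcript length, so it is the scale used here to set different genes side by side. Fold changes come from the counts, scaled by edgeR's TMM method and tested with its quasi-likelihood test, and a gene was called changed where the Benjamini-Hochberg adjusted p was under 0.05 over the 15197 genes. The 12 T cell markers, Cd3e and Cd4 among them, summed to between 2525 and 2577 FPKM in Control, 2399 and 2505 in the Metformin group, 2098 and 2215 with FK506 and 2236 and 2319 with Metformin+FK506, so the groups did not overlap, and with FK506 8 of the 12 fell and 4 rose. Markers of other cells differed between the groups. The 10 B cell markers summed to between 62.9 and 66.9 FPKM in Control, between 87.2 and 102 in the Metformin group, between 886 and 926 with FK506 and between 427 and 458 with Metformin+FK506. The 10 monocyte and macrophage markers summed to at most 0.281 FPKM in Control and 0.476 with metformin, and to between 1208 and 1251 with FK506 and between 756 and 881 with Metformin+FK506. Lyz2 alone had a mean of 981 FPKM with FK506 and 539 with Metformin+FK506. With metformin added to FK506, 2 of the 9 tested were higher, 1 lower and 6 not called (15.6% of all genes higher, 15.0% lower). C1qa, a complement gene of macrophages, had no count in any Control or Metformin sample. The 8 dendritic cell markers summed to between 203 and 221, 324 and 349, 550 and 560, and 303 and 331 FPKM in the same order of groups, with 4 of the 8 at 0 in Control, and the 2 CD8 T cell markers to between 6.84 and 13.2 FPKM over all samples. Most of each dendritic cell sum was Ccr7, which T cells also express, with means of 208, 329, 493 and 277 FPKM in that order. In bulk RNA, fewer cells of a type and less RNA per cell cannot be told apart, and the part of these other cells in the results on the 9 genes was not tested.

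**Figure D1:**
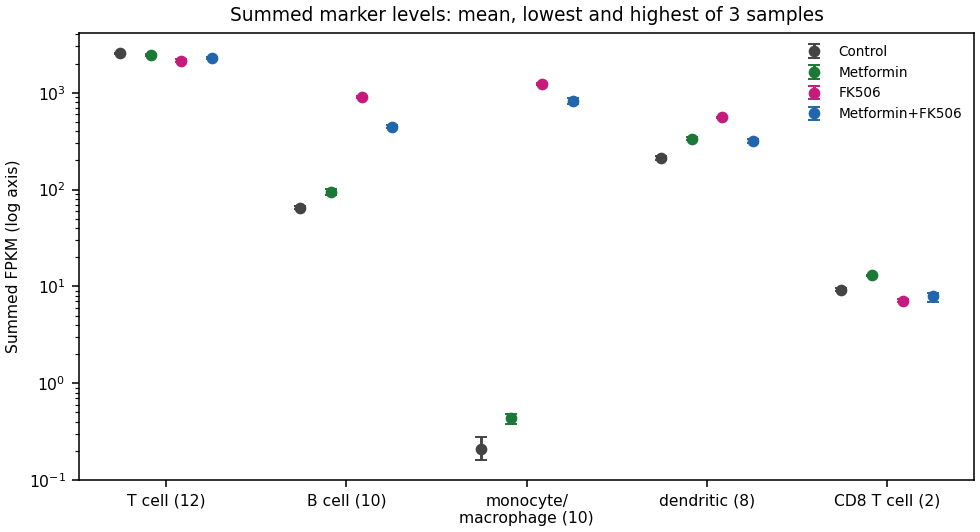
Summed FPKM of marker genes of T cells, CD8 T cells, B cells, monocytes and macrophages, and dendritic cells on a log axis, with the mean as a point and the lowest and highest of 3 samples as bars, by treatment group. The T cell sum was highest in Control (2525 to 2577) and lowest with FK506 (2098 to 2215), where the B cell sum reached 926 and the monocyte and macrophage sum 1251.

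The promoters of 8 of the 9 genes were found in the RefSeq promoter table of GRCm38.p6, the patched release of the mm10 build named in the submitters' processing notes, and Fosl1 had no entry. The AP-1 site TGACTCA occurred on either strand in 0 of the 8 windows of 300 bases (250 before and 50 after the transcription start), against 5.20% of 32851 promoters, and the full cyclic AMP response element TGACGTCA, which contains TGACG, in 0 of the 8, against 1.79%. The shorter core TGACG occurred in 4 of the 8, against 20.8% of all promoters. GGAAA, the core of NFAT sites, occurred in 3 of the 8, against 61.3%. The 4 promoters with TGACG are those of Fos, Fosb, Junb and Batf, which are shown because Fos and Fosb rose and Junb and Batf fell with FK506. The 150 bases before the listed start are printed 5′ to 3′ on the strand of the gene, and capitals mark TGACG.
Fos (chr12:85473740-85473889, plus strand): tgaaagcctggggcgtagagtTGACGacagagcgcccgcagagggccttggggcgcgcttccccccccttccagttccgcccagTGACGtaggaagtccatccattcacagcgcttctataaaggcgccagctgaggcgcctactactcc
Fosb (chr7:19310046-19310195, minus strand): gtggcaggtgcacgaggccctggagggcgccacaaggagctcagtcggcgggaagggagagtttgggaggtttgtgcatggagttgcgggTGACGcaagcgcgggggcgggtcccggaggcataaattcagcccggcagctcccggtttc
Junb (chr8:84978749-84978898, minus strand): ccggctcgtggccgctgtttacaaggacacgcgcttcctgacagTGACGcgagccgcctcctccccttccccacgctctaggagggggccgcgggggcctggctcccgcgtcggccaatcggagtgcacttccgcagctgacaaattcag
Batf (chr12:85686570-85686719, plus strand): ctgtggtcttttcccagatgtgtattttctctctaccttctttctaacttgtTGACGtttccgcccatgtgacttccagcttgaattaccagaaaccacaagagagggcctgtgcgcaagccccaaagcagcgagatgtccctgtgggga
Counted back from the start, TGACG lay at positions -129 to -125 and -66 to -62 in Fos, at -60 to -56 in Fosb, at -106 to -102 in Junb and at -98 to -94 in Batf. For Fosb the listed start lies inside the annotated gene. The matches are letters in the reference sequence, and binding was not measured.

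With FK506 against Control, all 9 genes changed, 3 higher and 6 lower. Fosb, among the 3, had passed the filter only through the groups with FK506. Of all genes tested 80.9% changed in this comparison (41.3% higher and 39.6% lower), so most genes of the whole table were called as well. Scaled to the summed counts of the 12 T cell markers instead of TMM, which moved the median of all genes to 0.51, 61.3% were called higher and 22.8% lower, and of the 9 genes 4 were higher and 4 lower. With TMM the median log2 fold change of the 9 genes was -0.54, against 0.024 over all genes tested. The rises were in Fosb, Fos and Jun, and the deepest falls in Fosl2, Junb, Batf3 and Batf. A log2 fold change past 1 in either direction was called for 6 of the 9, against 36.6% of all genes. With metformin against Control, 2 of the 9 genes rose and 6 fell, where 56.0% of all genes changed (28.6% higher and 27.4% lower), and the median of the 9 was -0.42 against 0.011. Batf3 and Batf fell furthest with metformin, by 2.40 and 1.13 on the log2 scale, and Fos rose most. With metformin added to FK506, 2 of the 9 genes were higher and 3 lower than with FK506 alone, where 30.7% of all genes changed (15.6% higher and 15.0% lower). Of these 5 differences 0 reached 1 on the log2 scale, against 4.21% of all genes. On TMM-scaled counts the samples of the groups did not overlap for 9 of the 9 genes with FK506 against Control (84.5% of all genes), 8 with metformin against Control (66.4%) and 6 with metformin added to FK506 (39.8%).

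**Figure D2:**
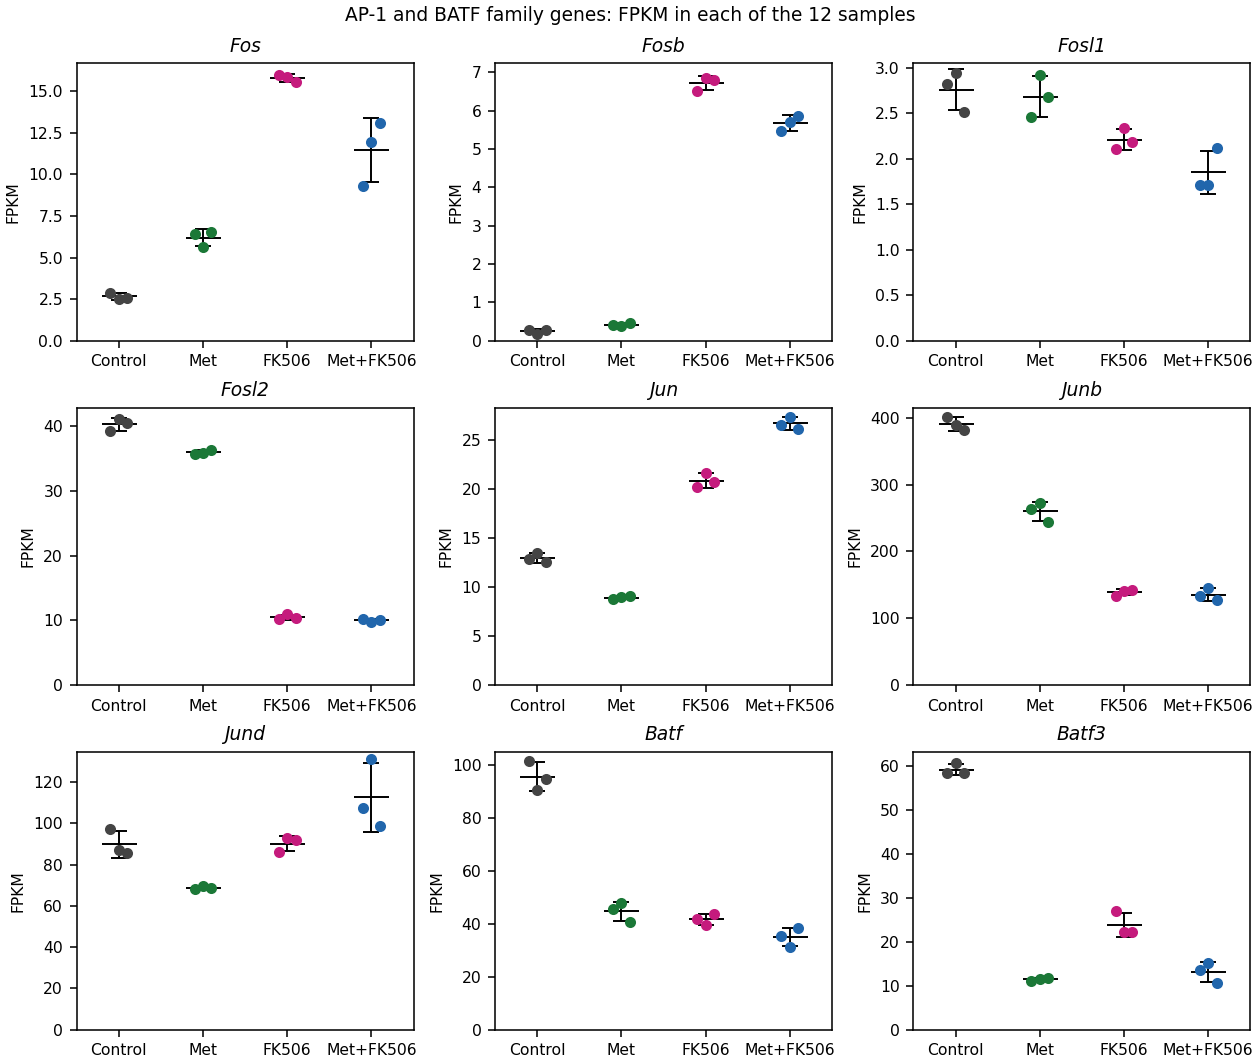
FPKM of each of the 9 genes in each of the 12 samples, with 1 panel per gene, an axis that starts at 0, points for samples and a line with bars for the group mean and SD. Fos and Fosb were highest with FK506, Jun and Jund with Metformin+FK506, and Fosl2, Junb, Batf and Batf3 in Control.

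Fos encodes c-Fos, the classical immediate early partner of JUN proteins. The gene lies at chr12:85473890-85477274 on the plus strand and has 4 exons. Its FPKM was 2.88, 2.52 and 2.59 in Control, 6.44, 5.63 and 6.54 in the Metformin group, 16.0, 15.8 and 15.5 with FK506, and 9.33, 11.96 and 13.1 with Metformin+FK506. The 4 groups did not overlap, and the FK506 samples were the highest. Against Control, Fos rose 5.10-fold with FK506 (log2 fold change 2.35, SE 0.11, adjusted p = 6.33e-12) and 2.28-fold with metformin (log2 fold change 1.19, adjusted p = 1.82e-07). Added to FK506, metformin moved it the other way, by -0.44 on the log2 scale (adjusted p = 0.00357).

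Fosb encodes FosB, a close relative of c-Fos with a spliced short form that these gene-level values do not separate. The gene lies at chr7:19302696-19310118 on the minus strand and has 4 exons. Its FPKM was 0.288, 0.182 and 0.269 in Control, 0.402, 0.378 and 0.465 in the Metformin group, 6.50, 6.85 and 6.79 with FK506, and 5.47, 5.71 and 5.87 with Metformin+FK506. Both groups with FK506 lay far above both groups without it, and the Control values rest on 42 to 62 counts per sample. Every sample without FK506 was under 0.5 FPKM, so Fosb passed the filter only through the groups with FK506, where it is high. The rise with FK506 was 23.2-fold (log2 fold change 4.53, SE 0.13, adjusted p = 6.77e-15), the largest of the 9 genes in that comparison. Metformin alone gave 1.67-fold (adjusted p = 0.000614). With metformin added to FK506 every sample was lower than every FK506 sample, but the difference of -0.21 on the log2 scale (95% interval -0.43 to 0.010) missed the threshold (adjusted p = 0.111). It passed with T cell marker scaling (-0.31, adjusted p = 0.0169), where the median of all genes moved to -0.10, and in DESeq2 (-0.22, adjusted p = 0.0407). Beside the rise of Fos and Fosb with FK506, 10 of 10 B cell markers rose, where 41.3% of all genes were called higher. The 9 monocyte and macrophage markers tested rose too, but all were under 0.5 FPKM without FK506. They and the B cell marker Cr2 passed the filter only through the groups with FK506, so their rise was fixed in advance. The part of these cells was not tested. With T cell marker scaling the rise was 2.84 for Fos and 5.02 for Fosb on the log2 scale.

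Fosl1 and Fosl2 encode the Fos-related antigens FRA1 and FRA2, which lack the transactivation domain of c-Fos. Fosl2 (chr5:32136472-32157840, plus strand, 4 exons) was the most abundant FOS gene in Control. Its FPKM was 39.2, 41.1 and 40.5 in Control, 35.6, 35.9 and 36.3 in the Metformin group, 10.2, 10.9 and 10.4 with FK506, and 10.2, 9.72 and 10.1 with Metformin+FK506. Control and metformin did not overlap with each other or with the groups given FK506, whereas FK506 and Metformin+FK506 overlapped. Fosl2 fell 4.45-fold with FK506 (log2 fold change -2.16, SE 0.036, adjusted p = 1.12e-17) and by 0.20 on the log2 scale with metformin (adjusted p = 0.00014). With T cell marker scaling the value with FK506 was -1.67. Adding metformin to FK506 gave -0.045 (95% interval -0.13 to 0.039, adjusted p = 0.382), and with T cell marker scaling -0.15 (adjusted p = 0.0101), a scaling that moved the median of all genes to -0.10 in this comparison.

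Fosl1 (chr19:5447698-5455938, plus strand, 4 exons) was low in every group. Its FPKM was 2.82, 2.95 and 2.51 in Control, 2.46, 2.92 and 2.68 in the Metformin group, 2.11, 2.34 and 2.19 with FK506, and 1.71, 1.72 and 2.12 with Metformin+FK506. Control and metformin overlapped, as did FK506 and Metformin+FK506. The fall with FK506 was 1.45-fold (log2 fold change -0.54, SE 0.14, adjusted p = 0.00176) and was lost with T cell marker scaling (-0.046, adjusted p = 0.76), where the median of all genes was 0.51. With metformin the difference was -0.073 (95% interval -0.38 to 0.24, adjusted p = 0.676), the only difference from Control among the 9 genes that was not called with metformin. Fosl1 shares bases with Ccdc85b on the opposite strand (5.16 FPKM in Control), and since it is not stated whether counting used strand, the value of Fosl1 is uncertain.

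Jun encodes c-Jun, the strongest activator among the JUN proteins. The gene lies at chr4:95049036-95052222 on the minus strand and has 1 exon. Its FPKM was 12.9, 13.5 and 12.6 in Control, 8.75, 8.96 and 9.11 in the Metformin group, 20.2, 21.7 and 20.7 with FK506, and 26.6, 27.4 and 26.2 with Metformin+FK506. No groups overlapped, and metformin samples were lowest and Metformin+FK506 samples highest. Metformin alone lowered Jun 1.49-fold (log2 fold change -0.57, SE 0.047, adjusted p = 2.8e-08), and metformin added to FK506 raised it 1.30-fold (log2 fold change 0.38, SE 0.044, adjusted p = 6.63e-06). FK506 against Control gave a 1.38-fold rise (log2 fold change 0.47, adjusted p = 6.5e-08), which was 0.96 on the log2 scale with T cell marker scaling.

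Junb encodes JunB, which takes part in Th2 and Th17 differentiation. The gene (chr8:84976909-84978748, minus strand, 1 exon) had the highest mean FPKM of the 9 in all 4 groups. Its FPKM was 402, 389 and 382 in Control, 264, 272 and 245 in the Metformin group, 134, 141 and 142 with FK506, and 133, 146 and 127 with Metformin+FK506. Control was highest and metformin next, without overlap, and FK506 and Metformin+FK506 overlapped. Junb fell 3.27-fold with FK506 (log2 fold change -1.71, SE 0.056, adjusted p = 3.99e-14) and 1.54-fold with metformin (log2 fold change -0.62, SE 0.054, adjusted p = 6.31e-08). Scaled to T cell markers the log2 fold change with FK506 was -1.22. Metformin added to FK506 gave -0.012 (95% interval -0.14 to 0.11, adjusted p = 0.902).

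Jund encodes JunD, the JUN protein that is present in most resting cells. The gene (chr8:70697739-70700616, plus strand, 1 exon) had FPKM values of 97.4, 87.0 and 85.4 in Control, 68.3, 69.8 and 68.5 in the Metformin group, 85.9, 92.7 and 91.7 with FK506, and 108, 131 and 98.9 with Metformin+FK506. In FPKM, Control and FK506 overlapped, metformin lay below both, and the 3 Metformin+FK506 samples lay above all others and were spread most. Metformin lowered Jund 1.34-fold (log2 fold change -0.42, SE 0.083, adjusted p = 0.000425), and metformin added to FK506 raised it 1.27-fold (log2 fold change 0.35, SE 0.082, adjusted p = 0.00407). The call with FK506 depended on the scaling, the method and single samples. With TMM the log2 fold change was -0.21 (adjusted p = 0.0259), with DESeq2 -0.19 (adjusted p = 0.0838) and with T cell marker scaling 0.28 (adjusted p = 0.00421), a scaling that moved the median of all genes to 0.51. Without Control replicate 1 it was -0.15 (adjusted p = 0.127) and without FK506 replicate 1 it was -0.18 (adjusted p = 0.0962).

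Jun, Junb and Jund share bases with genes on the opposite strand, so their values carry the same uncertainty about strand. Prdx2, a peroxide-reducing enzyme gene that overlaps Junb, had means of 109 FPKM in Control, 86.0 in the Metformin group, 56.3 with FK506 and 56.4 with both drugs, below Junb in each group. Junos, which overlaps Jun, stayed at or under a mean of 0.442 FPKM. Gm11175 overlaps Jund and was given no value here.

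Batf (chr12:85686720-85709087, plus strand, 3 exons) encodes the BATF protein itself. Its FPKM was 101, 90.4 and 94.6 in Control, 45.7, 47.6 and 40.8 in the Metformin group, 41.7, 39.6 and 43.4 with FK506, and 35.4, 31.2 and 38.2 with Metformin+FK506. Control lay above all other samples, metformin and FK506 overlapped, and Metformin+FK506 was lowest. Batf fell 2.67-fold with FK506 (log2 fold change -1.42, SE 0.069, adjusted p = 8.47e-12) and 2.18-fold with metformin (log2 fold change -1.13, SE 0.068, adjusted p = 7.5e-10). With T cell marker scaling the value with FK506 was -0.93 on the log2 scale. The further fall when metformin was added to FK506 was small, -0.23 on the log2 scale (SE 0.070, adjusted p = 0.0209). It lost the call without FK506 replicate 1 (-0.23, adjusted p = 0.0527), without FK506 replicate 3 (-0.21, adjusted p = 0.074) or without Metformin+FK506 replicate 2 (-0.17, adjusted p = 0.0847).

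Batf3 (chr1:191098414-191108943, plus strand, 3 exons) had FPKM values of 58.5, 60.7 and 58.4 in Control, 10.96, 11.5 and 11.8 in the Metformin group, 26.9, 22.1 and 22.2 with FK506, and 13.5, 15.1 and 10.5 with Metformin+FK506. Control was far above the rest, FK506 lay between, and metformin and Metformin+FK506 overlapped. It was the gene of the 9 with the largest fall with metformin, 5.29-fold (log2 fold change -2.40, SE 0.11, adjusted p = 2.72e-11), and it fell 2.89-fold with FK506 (log2 fold change -1.53, SE 0.11, adjusted p = 9.03e-10). With T cell marker scaling the value with FK506 was -1.04. Metformin added to FK506 lowered it a further 1.78-fold (log2 fold change -0.83, SE 0.11, adjusted p = 3.08e-05). Of the 8 dendritic cell markers, 4 were at 0 in every Control sample, Xcr1 and Clec9a among them, while Ccr7, which T cells also express, had a mean of 208 FPKM in Control and 329 with metformin, Zbtb46 had 2.01 and 4.05, and Flt3 had 0.65 and 0.67. For Ccr7, Zbtb46 and Flt3 the means were 493, 22.1 and 32.3 FPKM with FK506. They were 277, 14.2 and 21.7 FPKM with Metformin+FK506. The part of dendritic cells in the Batf3 values was not tested. Batf3 and Fosl2 are among the genes the study chose for heatmaps on these samples, so the direction of their difference between Metformin+FK506 and Control is not independent evidence.

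**Figure D3:**
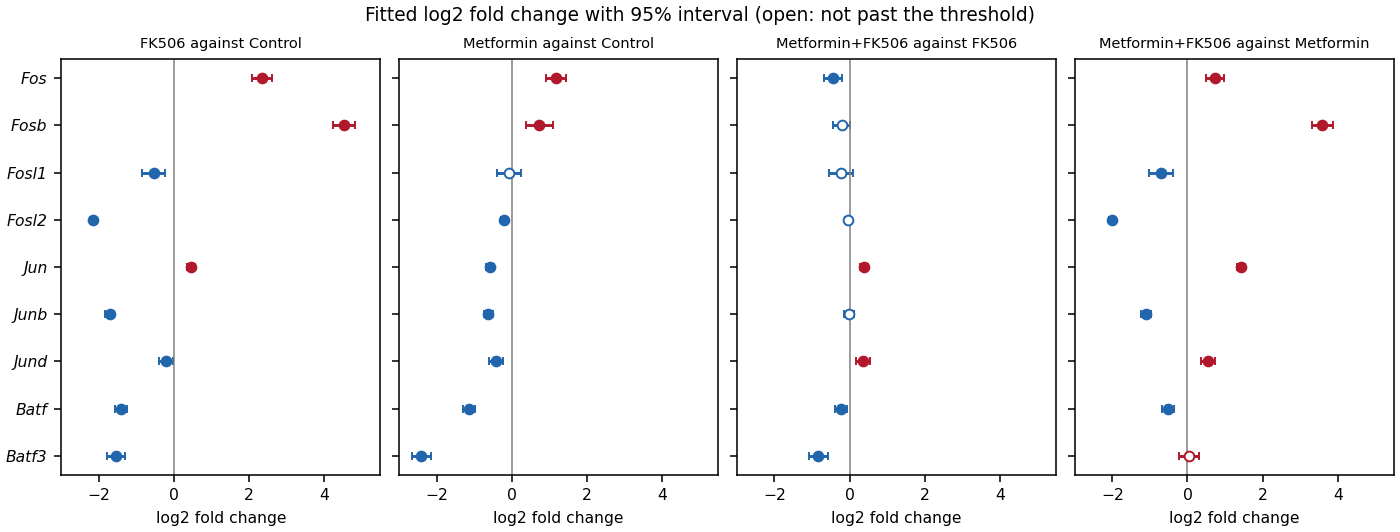
Fitted log2 fold changes of the 9 genes with 95% intervals, 1 panel for each of 4 comparisons, with open symbols for differences not past the threshold. Fosb with FK506 (4.53) and Batf3 with metformin (-2.40) are the far points of the first pair of comparisons with Control, and every difference between Metformin+FK506 and FK506 lay within 0.83 of 0.

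The order of the genes by FPKM changed with treatment. In Control the means ran from Junb (391 ± 9.95, SD, n = 3) through Batf (95.4 ± 5.48), Jund (89.9 ± 6.53), Batf3 (59.2 ± 1.31), Fosl2 (40.3 ± 1.00), Jun (13.0 ± 0.488), Fosl1 (2.76 ± 0.223) and Fos (2.66 ± 0.188) to Fosb (0.247 ± 0.0564). Batf and Jund overlapped, and so did Fosl1 and Fos, while the other neighbours did not. With metformin no neighbours overlapped, Jund stood above Batf, Fosl2 above Batf3 and Fos above Fosl1. With FK506 Jund again stood second and Fosl2 (10.5 ± 0.390) fell below Jun (20.9 ± 0.750) and Fos (15.8 ± 0.230), and Fosl1 (2.21 ± 0.116) was last, below Fosb (6.71 ± 0.187). With Metformin+FK506 Junb (135 ± 9.57) and Jund (113 ± 16.8) overlapped, as did Batf3 (13.1 ± 2.33), Fos (11.5 ± 1.94) and Fosl2 (10.0 ± 0.264) in neighbouring pairs.

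Summed over the 9 genes, FPKM was 694 ± 19.9 in Control, 439 ± 17.2 in the Metformin group, 350 ± 6.40 with FK506 and 352 ± 25.2 with Metformin+FK506 (SD, n = 3). Junb held 56.3% ± 0.294 of that sum in Control and 59.2% ± 0.922 with metformin (by counts, which are not per length, the order turned, at 51.5% and 48.6%), but 39.6% ± 0.589 with FK506 and 38.5% ± 0.293 with Metformin+FK506. Jund held 12.9% in Control, 25.7% with FK506 and 31.9% with Metformin+FK506, and Jun held 1.87%, 5.96% and 7.62%. Each of these shares was apart from Control in every sample with FK506, with an exact two-sided permutation p of 0.1, the smallest that 3 against 3 samples allow, so no share could pass a threshold of 0.05. The JUN genes together held 71.1% ± 0.369 in Control, 76.9% ± 0.299 in the Metformin group, 71.3% ± 1.27 with FK506 and 78.0% ± 2.11 with Metformin+FK506. Against Control, the JUN share with FK506 differed by less than the spread between samples (exact permutation p = 0.8), and the groups with metformin and with Metformin+FK506 each lay above all Control samples (exact permutation p = 0.1 for both). By counts the JUN share with metformin was below that of Control (71.7% and 73.1%), and those with FK506 and Metformin+FK506 were above it (76.5% and 81.5%).

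Among the FOS genes, Fosl2 held 5.80% of the sum in Control, 8.19% in the Metformin group, 2.99% with FK506 and 2.86% with Metformin+FK506. Fos held 0.383% in Control and 4.51% with FK506, and Fosb 0.0355% and 1.92%. The most abundant FOS gene by FPKM was therefore Fosl2 in Control and metformin and Fos with FK506 and with Metformin+FK506, although the samples of Fos and Fosl2 overlapped in the last. The BATF genes held 22.3% in Control, 12.8% in the Metformin group, 18.6% with FK506 and 13.7% with Metformin+FK506. Batf3 accounted for most of the smaller BATF share with metformin, going from 8.53% to 2.60%. The direction against Control also depended on the length correction for the FOS genes together, which held 17.7% in Control, 16.3% with FK506 and 13.4% with Metformin+FK506 by counts, and 6.62%, 10.05% and 8.28% by FPKM. It turned for the small difference of Jun with metformin as well (2.97% and 2.90% by counts, 1.87% and 2.04% by FPKM).

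**Figure D4:**
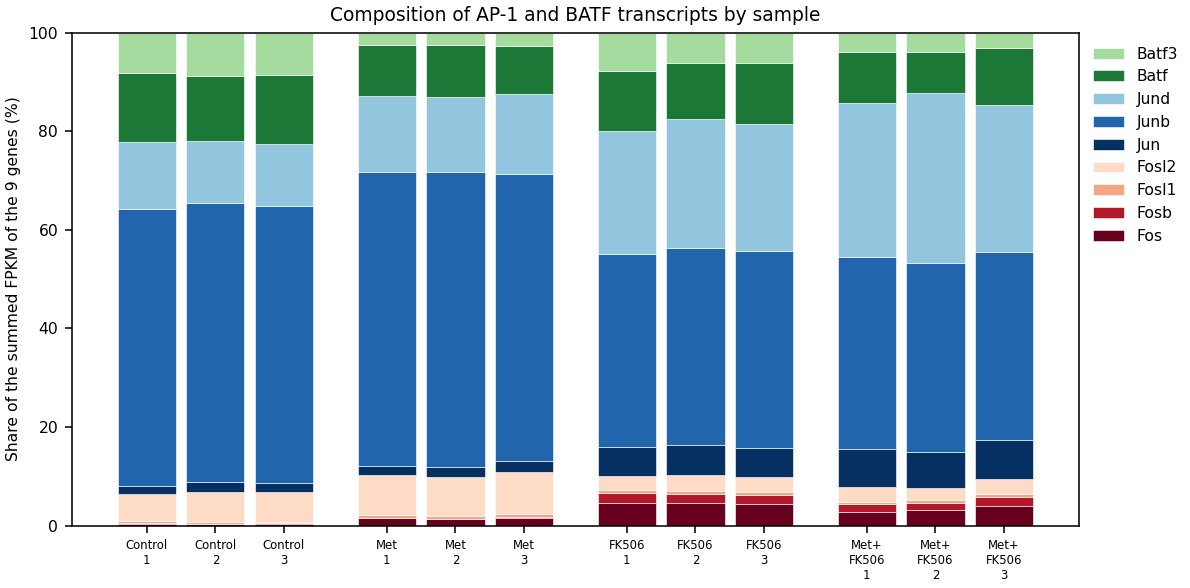
Share of each of the 9 genes in their summed FPKM, in percent, as stacked bars for the 12 samples grouped by treatment. Junb fills 56.0% to 59.8% of the Control and metformin bars and 38.3% to 40.0% of the bars with FK506, where Jund, Jun, Fos and Fosb take more.

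The design crosses the drugs, so the effect of metformin can be compared without and with FK506 through the interaction term, the log2 fold change of metformin on top of FK506 minus that of metformin alone. Of the 9 genes, 8 passed the threshold, 6 with a positive and 2 with a negative term, where 46.5% of all genes tested did (22.5% positive and 24.0% negative). The pairs of contrasts behind the term share no samples. Jun and Jund fell with metformin alone and rose with metformin on top of FK506, and their terms were 0.95 (SE 0.064, adjusted p = 4.77e-09) and 0.77 (SE 0.12, adjusted p = 5.04e-05). Fos did the reverse, a rise of 1.19 alone and a difference of -0.44 on top of FK506, with a term of -1.62 (SE 0.15, adjusted p = 2.5e-07). For these 3 genes both effects passed the threshold, in opposite directions.

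For the other genes with a term past the threshold, the effect of metformin on top of FK506 was closer to 0 than that of metformin alone. Batf3 had the largest positive term, 1.58 (SE 0.16, adjusted p = 4.93e-07), with a fall of 2.40 by metformin alone and of 0.83 on top of FK506. The term of Batf was 0.90 (adjusted p = 1.46e-06) and that of Junb 0.61 (adjusted p = 7.31e-06). Fosb had -0.95 (adjusted p = 0.000408). Fosl2 had 0.15 (adjusted p = 0.0218), which went to -0.028 with T cell marker scaling (adjusted p = 0.721, with the median term of all genes at -0.20) and lost the call without Control replicate 2 (0.13, adjusted p = 0.0591), without Control replicate 3 (0.14, adjusted p = 0.0506) or without FK506 replicate 1 (0.13, adjusted p = 0.0539). Fosl1 had -0.16 (95% interval -0.60 to 0.28, adjusted p = 0.526). Beside these terms, 9 of the 10 B cell markers had a negative term past the threshold (24.0% of all genes), with a median of -1.60. Of these markers 10 of 10 were lower with Metformin+FK506 than with FK506 alone (15.0% of all genes). The 9 monocyte and macrophage markers tested had 1 positive term, 1 negative and 7 not called, and these rest on values near 0 FPKM without FK506. The signs of the terms of Fos, Fosb, Jun, Junb, Jund, Batf and Batf3 and their calls held with T cell marker scaling, from -1.80 for Fos to 1.40 for Batf3.

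**Figure D5:**
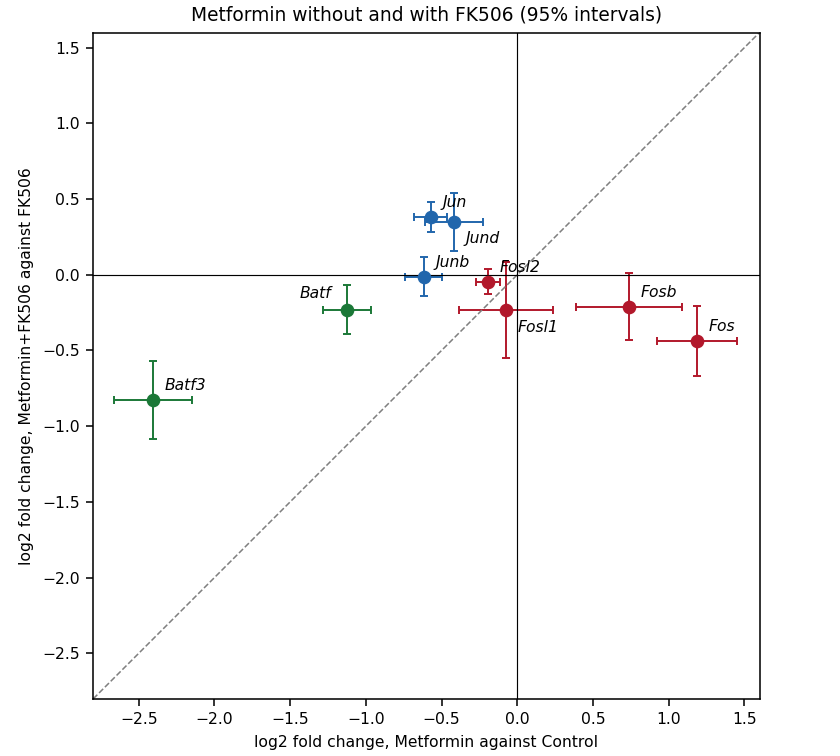
Log2 fold change by metformin without FK506 (Metformin against Control, horizontal) and with FK506 (Metformin+FK506 against FK506, vertical) for the 9 genes, with 95% intervals. Jun (-0.57 and 0.38) and Jund (-0.42 and 0.35) lie to the upper left, Fos (1.19 and -0.44) to the lower right, and Batf3 (-2.40 and -0.83) to the lower left.

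Metformin+FK506 was also compared with each single condition that lacks FK506. Against Control, 3 of the 9 genes were higher and 5 lower, where 81.7% of all genes changed (42.1% higher and 39.6% lower). Past a log2 fold change of 1 were 6 of the 9, against 37.4% of all genes, and 8 did not overlap between the groups, against 82.3%. Fosb rose 20.0-fold, Fos 3.77-fold and Jun 1.80-fold, and the largest falls were in Batf3 (5.13-fold), Fosl2 (4.60-fold), Junb (3.29-fold) and Batf (3.13-fold). Jund gave 0.14 on the log2 scale (95% interval -0.053 to 0.33, adjusted p = 0.136), and the call turned to higher with T cell marker scaling (0.52, adjusted p = 1.25e-05), where the median of all genes moved to 0.42, and without Metformin+FK506 replicate 3 (0.22, adjusted p = 0.0118). Without Metformin+FK506 replicate 2, the highest sample, it was -0.0065.

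Against metformin alone, 4 of the 9 genes were higher and 4 lower with Metformin+FK506, where 78.2% of all genes changed (40.3% higher and 37.9% lower). Past a log2 fold change of 1 were 4 of the 9, against 32.2% of all genes, and 8 did not overlap between the groups, against 78.9%. Fosb rose 12.02-fold, Jun 2.68-fold, Fos 1.65-fold and Jund 1.47-fold, and Fosl2 fell 4.01-fold, Junb 2.15-fold, Fosl1 1.62-fold and Batf 1.43-fold. Batf3 gave 0.046 on the log2 scale (95% interval -0.22 to 0.31, adjusted p = 0.726), and with T cell marker scaling it was higher (0.36, adjusted p = 0.009), where the median of all genes moved to 0.34. Comparisons that use the same Control or FK506 samples are not independent of each other.

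The partners of AP-1 and BATF on DNA were measured in the same samples. Irf4, the partner of BATF in T cells, had a mean of 204 ± 3.88 FPKM in Control, 92.3 ± 4.79 in the Metformin group, 44.7 ± 2.69 with FK506 and 42.2 ± 1.14 with Metformin+FK506 (SD, n = 3). It fell by 2.41 on the log2 scale with FK506 (adjusted p = 4.5e-17) and by 1.18 with metformin (adjusted p = 1.6e-12), and metformin added to FK506 gave -0.058 (adjusted p = 0.35). Irf8, which B cells and myeloid cells express strongly, rose by 0.84 with FK506 (adjusted p = 5.5e-12) and fell by 0.28 with metformin, beside the rise of B cell and myeloid markers with FK506. Of the 3 NFAT genes, Nfatc1 and Nfatc3 rose with FK506 (0.69 and 0.97) and Nfatc2 fell (-0.96). With metformin, Nfatc2 fell by 0.90 and Nfatc1 and Nfatc3 rose by 0.20 and 0.57.

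Of 24 cytokine, receptor and lineage genes that AP-1, BATF or NFAT are known to act on, 18 fell and 4 rose with FK506, against 80.9% of all genes called and 39.6% called lower. Il13 (-7.62), Il4 (-6.57), Il21 (-6.39) and Gzmb (-5.66) had the largest falls on the log2 scale, and Il4 rests on 5 to 28 counts per FK506 sample. Those that rose included Il23r (5.0), Il17a (1.47) and Prdm1 (0.94), which were chosen after their values were seen. With metformin 19 of the 24 fell and 0 rose, against 27.4% of all genes called lower and 28.6% higher, led by Il13 (-4.76), Il5 (-4.61), Il10 (-3.67) and Il21 (-2.97). At an unadjusted p under 0.05 the number rising in edgeR was also 0, limma on quantile-normalized values called 1, and Il17a gave 0.64 (adjusted p = 0.25).

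Il2, the growth factor of activated T cells, had a mean of 4.09 ± 0.314 FPKM in Control, 1.76 ± 0.220 in the Metformin group, 0.736 ± 0.124 with FK506 and 1.05 ± 0.531 with Metformin+FK506. It fell by 2.67 with FK506 and by 1.25 with metformin on the log2 scale, and metformin added to FK506 gave 0.50 (adjusted p = 0.22). Csf2, which encodes GM-CSF, fell by 4.84 with FK506 and 2.12 with metformin. Il21, a cytokine of follicular helper and Th17 cells, gave -6.39 and -2.97. Added to FK506, metformin gave differences of 0.60 for Csf2 (adjusted p = 0.071) and 0.43 for Il21 (adjusted p = 0.086). In that comparison 8 of the 24 genes rose and 2 fell, where 15.6% of all genes were called higher and 15.0% lower, with rises of 0.92 for Il23r, 0.67 for Ifng and 0.39 for Tnf, and with T cell marker scaling 6 rose and 5 fell (8.63% and 28.8% of all genes). The interaction term was positive for 17 of the 24 and negative for 0 (the number negative was also 0 at an unadjusted p under 0.05), against 22.5% of all genes with a positive and 24.0% with a negative term. With T cell marker scaling 17 were positive and 1 was negative (14.0% and 37.2% of all genes).

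Of 11 other bZIP genes, 6 rose and 2 fell with FK506, where 80.9% of all genes were called (41.3% higher and 39.6% lower). With T cell marker scaling 9 rose and 2 fell, where 61.3% of all genes were called higher and 22.8% lower. Batf2, at 13 to 29 counts per Control sample, rose by 2.75 on the log2 scale, Bach1 rose by 1.83, Atf3 fell by 2.19 and Maff by 0.85. Bach2, a repressor that competes for AP-1 sites in T cells, rose by 0.23 with FK506 (adjusted p = 0.00011) and by 0.43 with metformin (adjusted p = 2.7e-07). In FPKM, a different scale from the TMM-scaled counts, its means were 15.1 in Control, 22.3 with FK506 and 23.1 with metformin, a larger rise. With metformin 3 of the 11 rose and 5 fell, where 56.0% of all genes were called, among them Maf (-2.10), Batf2 (-1.61), Atf3 (-1.37) and Jdp2 (1.13). The value of Batf2 rests on 0 to 15 counts per Metformin sample, and its groups overlapped (adjusted p = 0.037). Batf2 passed the filter only through the groups with FK506. Added to FK506, metformin raised 5 and lowered 0, where 30.7% of all genes were called (also 0 at an unadjusted p under 0.05 in edgeR, and 2 with T cell marker scaling, where 28.8% of all genes were lower), with Jdp2 at 1.86 and Atf3 at 1.09. Atf3 had a mean of 66.5 FPKM in Control, 26.3 in the Metformin group, 16.96 with FK506 and 35.5 with Metformin+FK506, and an interaction term of 2.46 (adjusted p = 1.3e-13), and that of Maf was 2.66 (adjusted p = 2.2e-10).

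The MAP kinase cascade feeds AP-1, and dual specificity phosphatases switch it off. Of 15 kinase genes, 5 rose and 6 fell with FK506, where 80.9% of all genes were called (41.3% higher and 39.6% lower), led by Map2k6 (-2.01), Map2k1 (-0.93), Mapk14 (0.83) and Map3k1 (0.71). That split depended on the scaling, with 10 rising and 2 falling when scaled to T cell markers, where 61.3% of all genes were called higher and 22.8% lower. Of 8 phosphatase genes, 4 rose and 4 fell with FK506, against the same 80.9% of all genes, and the same numbers were found with T cell marker scaling. Dusp1 rose by 2.31 on the log2 scale, and Dusp4 fell by 2.21, Dusp16 by 1.17 and Dusp6 by 0.95. Dusp1 had a mean of 6.22 FPKM in Control, 8.22 in the Metformin group, 35.9 with FK506 and 39.0 with Metformin+FK506. With metformin 2 of the 8 rose and 4 fell, where 56.0% of all genes were called, and Dusp16 fell furthest (-1.34).

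Of 12 genes for upstream factors and for the turnover of JUN and FOS proteins, 4 rose and 5 fell with FK506, where 80.9% of all genes were called (41.3% higher and 39.6% lower), and with T cell marker scaling 7 and 2, where 61.3% were called higher and 22.8% lower. Ndfip1, an adaptor of the ubiquitin ligase ITCH that marks JUN proteins for degradation, fell by 1.08, and Mef2d and Creb1 rose by 0.90 and 0.87. Of 16 other immediate early genes, 9 rose and 5 fell with FK506, with T cell marker scaling 13 and 3 (against the same shares of all genes), and 10 rose and 4 fell with metformin, where 56.0% of all genes were called. Klf2, a factor of resting T cells, rose by 4.88 with FK506 and 1.29 with metformin, and Zfp36, which speeds mRNA decay, rose by 2.28 and 0.20. Myc fell by 2.87 with FK506 and 1.32 with metformin, and Ier3 fell by 1.70 and 2.19. Nr4a1 rose by 1.11 and 1.45.

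For each of the 9 genes, the tested genes with the closest pattern over the 12 samples were found by the root mean square difference of log2 TMM-scaled counts, each centred on its own mean. The closest were Myo1h (0.17) and Fbxo32 (0.17) for Fos, Cfp (0.18) and H2-Aa (0.18) for Fosb, Alms1 (0.080) and Jpt2 (0.092) for Fosl1, and Ybx3 (0.059) and Gm7143 (0.088) for Fosl2. H2-Aa, an MHC class II gene, and Cfp, the properdin gene, are expressed by B cells or myeloid cells. For the JUN genes they were Cyb5r3 (0.096) and Per3 (0.10) for Jun, Atp11b (0.056) and Ube2s (0.072) for Junb, and Bloc1s4 (0.087) and Ptges3 (0.10) for Jund. For the BATF genes they were Eif5a (0.088) and Atxn7l2 (0.096) for Batf, and Trim30a (0.23) and Ifi27l2a (0.25) for Batf3. Within the 9 genes, the closest pair was Batf and Junb (0.31), and the gene farthest from any other was Fosb, at 1.28 from Fos.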

How the data were processed

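Poly(A) RNA of 12 samples was analysed, 3 in each of 4 groups set by the sample labels. The authors deposited counts of reads per gene, not normalized, with FPKM values (scaled to library size and transcript length) and TPM values for the same genes. The submitters' processing notes name bcl2fastq 2.20.0, Trimmomatic, HISAT2 2.1.0, StringTie 2.1.3b and the mm10 build, without their order. Whether counting used strand, and how reads shared between genes were treated, is not given in the sources used here.

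Genes were tested with edgeR 4.0.16 (TMM, glmQLFit and glmQLFTest, all 4 groups in 1 fit with 8 residual degrees of freedom) in R 4.3.3, after keeping genes whose FPKM reached 0.5 in 3 or more samples, with Benjamini-Hochberg adjustment over 15197 genes. Intervals of 95% use the t distribution with those 8 degrees of freedom. The 5 comparisons of groups and the interaction of the drugs were read from that fit. Replicates differed by more than sampling noise (chi-square of 3.98 to 15.2 per degree of freedom), so each was used as 1 sample. Total counts per sample were 43402632 to 64290105, and the precision of low genes is limited by their counts.

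Alternatives were DESeq2 1.42.0, RLE factors, library size only, T cell marker scaling (library sizes set to the summed counts of 12 T cell markers), limma 3.58.1 on log2(FPKM + 1), log2(FPKM + 0.1) and quantile-normalized values, other filters, a replicate block, single samples left out and, added after seeing the data, limma on log2(TPM + 1) and a fold change threshold. All tests were tried on simulated counts first. The 9 genes, the pathway lists and the markers were chosen with earlier results of these data known. All 9 genes were named, and from each list up to 4 genes with the largest change past the threshold per comparison, with Irf4, Irf8, Il2, Csf2, Il21 and Bach2. Some genes of the lists count in the totals but are not reported here by name. Loci and promoters came from RefSeq and the gene annotation of GRCm38.p6.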

Additional observations from a re-analysis of the deposited data

Results flagged for a closer look

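The effect of metformin differed with and without FK506 for 8 of the 9 genes, by edgeR's quasi-likelihood test of the interaction (Benjamini-Hochberg adjusted p under 0.05 over all genes tested, n = 3 per group). Of all genes tested 46.5% passed the same test. The terms, on the log2 scale, were negative for Fos (-1.62) and Fosb (-0.95) and positive for Jun (0.95), Jund (0.77), Junb (0.61), Batf (0.90), Batf3 (1.58) and Fosl2 (0.15). In Jun and Jund all 3 samples with metformin alone were below all Control samples, and all 3 samples with both drugs were above all FK506 samples, in FPKM. In Fos the 3 samples with metformin alone were above all Control samples, and the 3 with both drugs were below all FK506 samples. Of the B cell markers, 9 of 10 terms were negative (24.0% of all genes). Of the 9 monocyte and macrophage markers tested, 1 term was positive, 1 negative and 7 not called. The part of these cells in the terms was not tested. Groups of 3 samples are too small for Dixon's test of an outlying value, which was not run.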

How the results depend on the processing

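The log2 fold changes and interaction terms of the 9 genes were recomputed with 1 sample left out. Of these, 636 kept their sign and call, 8 lost a call, 1 gained one and 3 changed sign. They include samples left out of groups that a comparison does not use, which leaves the compared samples in place. Under the other alternatives the numbers were 607, 9, 14 and 9. The calls of Fos and Fosb as higher and of Fosl2, Junb, Batf and Batf3 as lower with FK506 held under every alternative run. The cause of the changes below was not tested.

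Jund with FK506 against Control turned with the scaling, the measure and the model. It was -0.21 with TMM and 0.010 with library size only, 0.28 scaled to T cell markers, 0.0044 with limma on log2(FPKM + 1) and on log2(FPKM + 0.1), 0.11 with quantile normalization and 0.24 with limma on log2(TPM + 1). Other sign changes were Fosl1 with metformin (0.0026, T cell marker scaling), Junb with metformin added to FK506 (0.053 with quantile normalization and -0.089 to 0.029 with 1 sample left out, positive without Metformin+FK506 replicate 3), Batf3 between Metformin+FK506 and metformin (-0.084 to 0.18 with 1 sample left out, negative without Metformin+FK506 replicate 2), Jund between Metformin+FK506 and Control (-0.0065 to 0.22, negative without the same sample) and the Fosl2 interaction (-0.028, T cell marker scaling).

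A fold change threshold of 1 on the log2 scale beside the adjusted p left 1 higher and 2 lower with metformin (10.5% of all genes), 0 higher and 0 lower with metformin added to FK506 (4.21%), 2 higher and 2 lower for Metformin+FK506 against metformin (32.2%), and 1 positive and 1 negative interaction (11.9%). With T cell marker scaling 5 of the 9 genes were lower with metformin added to FK506 (28.8% of all genes), and with TPM 2 were lower for Metformin+FK506 against metformin (20.3%). By counts and not per length, in the order Control, metformin, FK506 and Metformin+FK506, the shares were 17.7%, 23.4%, 16.3% and 13.4% for FOS genes, 73.1%, 71.7%, 76.5% and 81.5% for JUN genes, and 9.20%, 4.93%, 7.18% and 5.10% for BATF genes. Against Control the direction by counts was opposite to that by FPKM for the JUN genes, Junb and Jun with metformin and for the FOS genes with FK506 and with Metformin+FK506. In the same order they were 0.403%, 1.33%, 4.39% and 3.01% for Fos, 0.0667%, 0.161%, 3.29% and 2.64% for Fosb, 0.338%, 0.466%, 0.497% and 0.397% for Fosl1, 16.9%, 21.4%, 8.10% and 7.31% for Fosl2, 2.97%, 2.90%, 8.76% and 10.6% for Jun, 51.5%, 48.6%, 33.7% and 30.9% for Junb, 18.5%, 20.1%, 34.1% and 40.0% for Jund, 6.18%, 4.10%, 4.95% and 3.95% for Batf and 3.02%, 0.827%, 2.23% and 1.15% for Batf3.

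The labels number replicates 1 to 3 in each group, but samples of 1 number did not deviate together (r between -0.069 and 0.048 over 18 pairs, 0 of them above 0.1). The main fit therefore used no pairing, although such correlations cannot exclude that samples of 1 number shared an animal or culture. The fit with the replicate block changed no call of the 9 genes, with Fos at 2.35 on the log2 scale in FK506 against Control. Depth limits Fosb in Control, at 42 to 62 counts per sample.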
